A study of Homo sapiens with 4 samples.

Results

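The mitochondrial ribosomal protein genes were taken as every gene of the table whose whole name is MRPL or MRPS followed by digits and an optional letter A to C. The rule found 78 of 56809 genes, 49 with MRPL names for the large subunit and 29 with MRPS names for the small subunit. The rule used names and no measured value. All samples were of NCI-H929, a long-established myeloma cell line of human origin, made to express Cas9, the nuclease that cuts DNA at a site chosen by a guide RNA. The BCL7A KO group (2 libraries) carried a knockout construct against BCL7A, a subunit of the SWI/SNF chromatin remodelling complexes, that doxycycline switches on. The control group (2 libraries) received a control construct per the labels' protocols, although its titles and genotype labels call it wild type; nothing here settles which holds. Both groups went through puromycin selection over 3 days and then 0.5 ug/ml doxycycline over 24 h, after which polyadenylated RNA was sequenced. The labels do not say whether either group was a single clone, nor that replicate libraries started from different cultures. The p-values therefore reflect only how far these libraries lie apart, which may be technical.

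Mitochondria keep a genome of their own that encodes core subunits of the respiratory chain and of ATP synthase, and they translate it on a separate ribosome. Its RNAs come from the mitochondrial genome, while all of its proteins are encoded in the nucleus, made in the cytosol and imported. The small subunit binds and decodes the mRNA, and the large subunit joins amino acids and passes the growing chain towards the inner membrane. Some of these proteins have counterparts in the bacterial ribosome and others were added in mitochondria. Gene names do not follow the subunits in every case: the products of MRPS30 and MRPS18A sit in the large subunit, and the product of MRPS36 is known as a component of the 2-oxoglutarate dehydrogenase complex.

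Library totals ranged from 38671744 to 40799624 counts in BCL7A KO cells and from 17567202 to 20153596 counts in control cells. BCL7A itself had 1.31 and 1.19 CPM (counts scaled to library size with edgeR's TMM factors) in the KO libraries, against 42.9 and 45.7 CPM in the control libraries, and so went with the labels. All 10 plasma cell markers examined were detected in every library, with summed levels of 15248 to 15289 CPM in KO and 8156 to 8275 CPM in control cells. The 7 mature B cell markers summed to 31.8 to 34.8 CPM in KO and 386 to 399 CPM in control cells, and 1 of them was at 0 in both KO libraries; CD79B made up most of the KO sum, at 29.9 and 32.3 CPM in KO and 16.5 and 20.6 CPM in control cells. The 5 epithelial markers summed to 11.99 to 12.6 CPM in KO and 66.1 to 70.9 CPM in control cells, with KRT19 at 0 throughout, EPCAM at 0 in both KO libraries, and KRT18 at 6.27 and 6.71 CPM in KO and 2.69 and 1.17 CPM in control cells. The T cell, myeloid and fibroblast lists each summed to at most 28.3 CPM in every library, with CD3D and MPO at 0 throughout; the T cell list summed to 14.0 to 14.1 CPM in KO and 27.2 to 28.3 CPM in control cells, and the fibroblast list to 0.325 to 0.399 CPM in KO and 10.6 to 10.9 CPM in control cells. The part of these differences in the results below was not tested.

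Most mitochondrial ribosomal protein genes were higher in BCL7A KO cells than in control cells. All 78 passed the filter on low counts. Of these, 63 rose, 8 fell and 7 did not pass the threshold of 0.05 on the adjusted p of edgeR's quasi-likelihood test. Changes were common in this comparison: 36.4% of the 17885 genes tested were called higher and 39.8% lower, 76.2% in all. Among the 9537 genes averaging 10 CPM or more, where every member lies, 54.2% were called higher and 31.7% lower, 85.8% in all. Against 85.8%, the members' 71 calls of 78 (91.0%) were near the background in number, which is no result about the members. The members' share called higher was 80.8% and their share called lower 10.3%. Their median log2 fold change (KO over control) was 0.61, against -0.06 for all genes tested and 0.19 for those of at least 10 CPM. Changes were moderate in size, from -0.90 for MRPS33 to 1.27 for MRPL1, and the middle 50% of the genes lay between 0.24 and 0.88. At least a 2-fold rise was seen for 12 members, and no member fell by as much. Of the 9537 genes of at least 10 CPM, 898 rose and 847 fell at least 2-fold. The count of 12 depends on the scaling. Upper-quartile factors shifted all genes by a median of -0.13 on the log2 scale. MRPL38 (log2 fold change 0.9996) and MRPL9 (0.88) were among the members that then no longer reached a 2-fold rise. MRPS18C (1.08), MRPL55 (1.04), MRPL58 (1.01), MRPL36 (1.00) and MRPL22 (1.00) had exceeded a 2-fold rise by less than this shift. In bulk RNA, more transcript per cell and a larger share of cells with the transcript cannot be told apart.

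**Figure D1:**
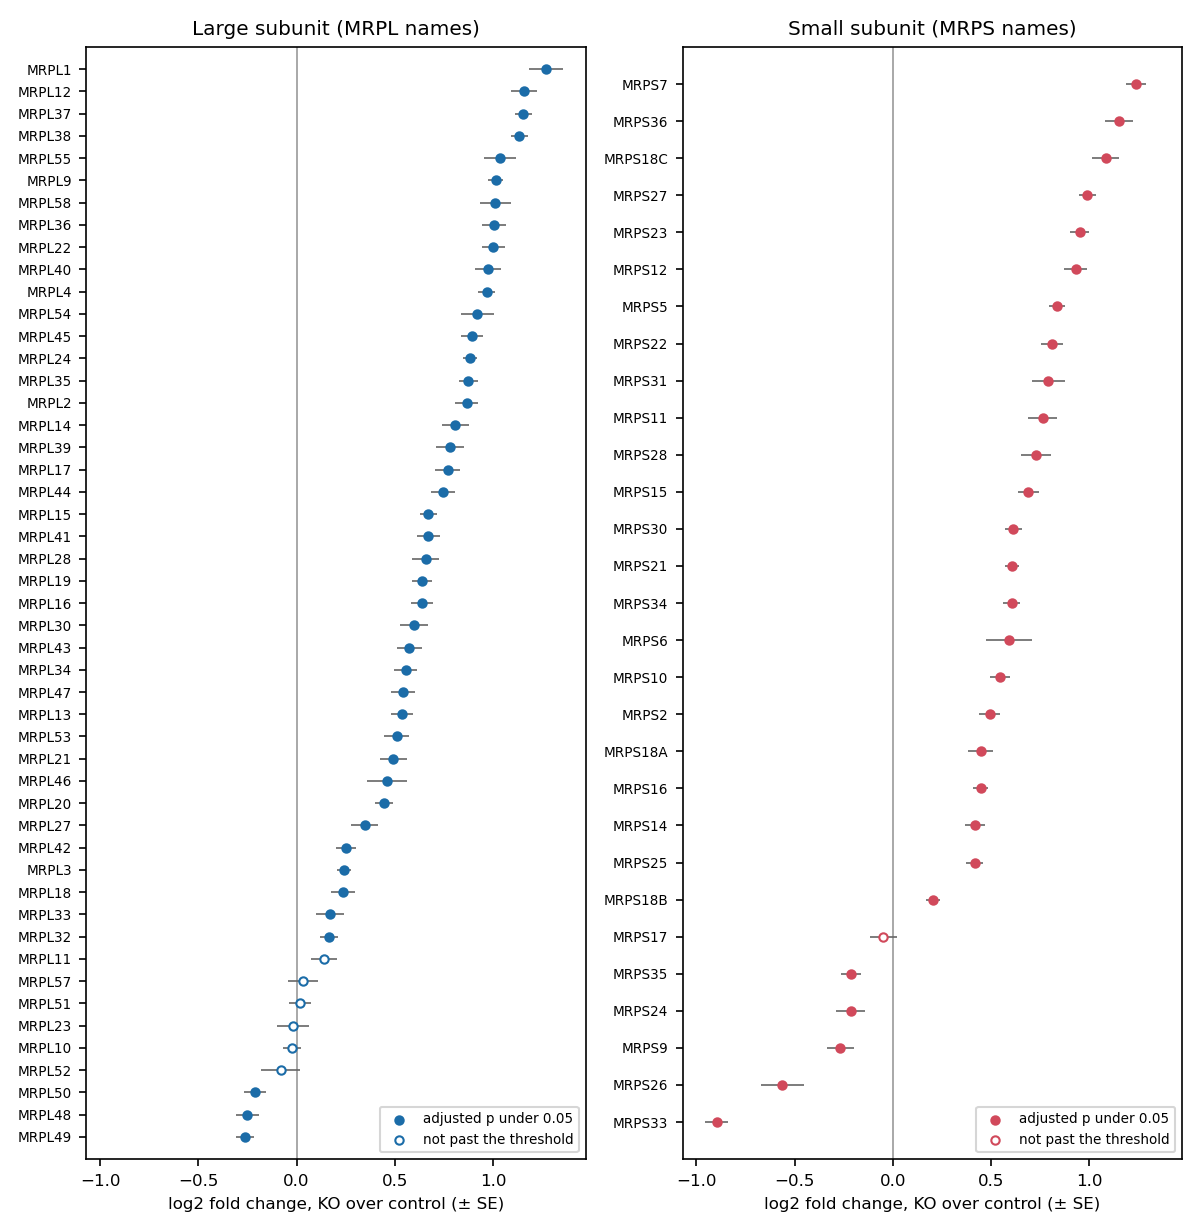
Log2 fold change (KO over control) of each of the 78 mitochondrial ribosomal protein genes with its standard error, large-subunit and small-subunit genes in separate colours and genes that did not pass the test in open symbols. MRPL1 stands at the top with 1.27 and MRPS33 at the bottom with -0.90.

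For 72 of the 78 members the 2 KO libraries did not overlap the 2 control libraries; 92.4% of the genes of at least 10 CPM showed the same, and 87.4% of all genes tested. The members that overlapped were MRPL10, MRPL23, MRPL51, MRPL52, MRPL57 and MRPS17. Libraries of a group lay close together. The log2 level of a member differed between the KO replicates by an SD of 0.0824 over the 78 genes and between the control replicates by an SD of 0.133. The groups' mean log2 levels differed by a median of 0.61 with an SD of 0.452. On the log2 scale, MRPL46 had the widest gap between control replicates, at 13.2 and 17.7 CPM, and MRPL52 the widest between KO replicates, at 15.1 and 12.6 CPM.

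Large-subunit and small-subunit genes had close medians; no test was made over the members. Of the 49 MRPL genes, 40 rose and 3 fell (median log2 fold change 0.64); of the 29 MRPS genes, 23 rose and 5 fell (median 0.60). The medians differed by 0.03, and leaving out each library in turn gave 0.01 to 0.04. Summed over the large-subunit genes, the level was 2563 and 2548 CPM in KO libraries, against 1701 and 1703 CPM in control libraries, a ratio of 1.501. Summed over the small-subunit genes it was 1651 and 1641 CPM in KO libraries, against 1142 and 1167 CPM in control libraries, a ratio of 1.43. In both sums the KO libraries lay above the control libraries by far more than the replicates differed. Without the TMM factors, which were 0.909 and 0.906 in the KO libraries and 1.102 and 1.103 in the control libraries, the ratios were 1.24 and 1.17. All 78 genes together took 0.383% and 0.379% of all counts in KO libraries, against 0.313% and 0.316% in control libraries, a share that does not depend on the scaling factors.

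The balance between the subunits moved slightly. Large-subunit genes held 60.8% of the members' counts in each KO library (95% Clopper-Pearson interval 60.6 to 61.1% in each), against 59.8% (59.4 to 60.2%) and 59.4% (59.0 to 59.7%) in the control libraries. These intervals cover counting error only, and the groups did not overlap. An exact permutation test of 2 libraries against 2 cannot give a p below 0.3333, so none is given. Grouped by place in the ribosome, with MRPS30 and MRPS18A in the large subunit and MRPS36 left out, 42 of 51 large-subunit genes rose and 3 fell, and 20 of 26 small-subunit genes rose and 5 fell. The medians were then 0.61 and 0.60.

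Members with a bacterial counterpart and members added in mitochondria were compared within each subunit. Of the 30 large-subunit genes with a bacterial counterpart, 27 rose (median 0.64) and the other 3, MRPL10, MRPL11 and MRPL23, did not pass the test. Of the 21 mitochondria-specific large-subunit genes, 15 rose and 3 fell (median 0.57). Of the 16 small-subunit genes with a bacterial counterpart, 13 rose and 2 fell (median 0.60), and of the 10 mitochondria-specific ones 7 rose and 3 fell (median 0.51). The mitochondria-specific genes thus held 6 of the 8 that fell, among 31 of the 77 genes so classed. Of the mitochondria-specific genes 19.4% fell, against 4.35% of those with a bacterial counterpart and 31.7% of the genes of at least 10 CPM. The difference between the classes was not tested.

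The promoters shown are those of the 3 members with the highest log2 fold change, MRPL1, MRPS7 and MRPL12, and of the 2 with the lowest, MRPS33 and MRPS26, so that both ends of the response can be read side by side. RefSeq promoter windows (GRCh38.p14, 250 bases before to 50 after the annotated start) matched 69 of the 78 members. Each is printed 5′ to 3′ on its gene's strand; capitals mark every match, on either strand, to CCGGAAG (core of sites for ETS family factors such as GABPA), ATGGCGG (part of the YY1 site), GCATGCG (part of the NRF1 site), GGGCGG (the GC box) or CACGTG (the E-box, the same on both strands). None of these motifs contains another; ATGGCGG and GGGCGG end in the same letters but cannot match at the same place. The windows are MRPL1 at chr4:77862580-77862879 (plus strand), MRPS7 at chr17:75261629-75261928 (plus strand), MRPL12 at chr17:81703117-81703416 (plus strand), MRPS33 at chr7:141014903-141015202 (minus strand) and MRPS26 at chr20:3045802-3046101 (plus strand). The MRPL12 window held none of the letters, as did 5 of the 69 in all. RefSeq and GENCODE starts lay within 100 bases of each other for 39 of the 69 members and more than 1000 bases apart for 5.
MRPL1: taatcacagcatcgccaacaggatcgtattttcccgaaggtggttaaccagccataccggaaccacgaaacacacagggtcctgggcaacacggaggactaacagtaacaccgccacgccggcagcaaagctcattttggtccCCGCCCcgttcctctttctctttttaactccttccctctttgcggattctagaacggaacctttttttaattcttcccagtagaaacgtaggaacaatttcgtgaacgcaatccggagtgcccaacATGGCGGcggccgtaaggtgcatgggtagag
MRPS7: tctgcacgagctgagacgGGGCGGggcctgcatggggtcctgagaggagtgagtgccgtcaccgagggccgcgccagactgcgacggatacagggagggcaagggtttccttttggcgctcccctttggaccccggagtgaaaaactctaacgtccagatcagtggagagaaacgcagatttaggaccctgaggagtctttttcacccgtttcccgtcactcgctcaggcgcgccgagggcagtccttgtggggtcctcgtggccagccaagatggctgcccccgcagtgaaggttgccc
MRPL12: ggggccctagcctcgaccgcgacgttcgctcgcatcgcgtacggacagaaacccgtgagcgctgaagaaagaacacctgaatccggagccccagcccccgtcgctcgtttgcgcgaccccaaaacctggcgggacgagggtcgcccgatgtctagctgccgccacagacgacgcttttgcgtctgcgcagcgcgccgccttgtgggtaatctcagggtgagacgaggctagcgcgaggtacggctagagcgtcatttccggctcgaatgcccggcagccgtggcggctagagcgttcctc
MRPS33: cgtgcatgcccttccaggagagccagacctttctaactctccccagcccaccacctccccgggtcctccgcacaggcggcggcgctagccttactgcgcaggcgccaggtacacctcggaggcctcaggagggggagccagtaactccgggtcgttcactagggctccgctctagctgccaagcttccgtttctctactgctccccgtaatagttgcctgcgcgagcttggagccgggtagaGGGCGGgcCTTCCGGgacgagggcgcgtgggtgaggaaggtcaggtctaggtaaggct
MRPS26: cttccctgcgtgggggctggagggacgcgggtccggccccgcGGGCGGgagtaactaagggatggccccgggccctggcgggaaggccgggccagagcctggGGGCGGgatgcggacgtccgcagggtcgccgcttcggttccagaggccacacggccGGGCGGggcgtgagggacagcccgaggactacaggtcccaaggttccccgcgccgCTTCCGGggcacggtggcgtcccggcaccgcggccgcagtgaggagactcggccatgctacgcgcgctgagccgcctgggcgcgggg

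The ETS core and the YY1 letters were common in member promoters, whether the gene rose or fell. CCGGAAG stood in 29 of the 69 windows (42.0%), against 10.7% of all 27305 RefSeq windows, 14.4% of those of protein-coding genes and 22.8% of those of protein-coding genes of at least 10 CPM here. It was in 17 of 42 large-subunit and 12 of 27 small-subunit windows. ATGGCGG stood in 24 windows (34.8%), against 5.72%, 7.79% and 12.4% in the same 3 sets. GGGCGG was in 60.9% of member windows, against 44.6%, 59.5% and 72.3%. GCATGCG was in 7 member windows (10.1%), against 4.13%, 5.20% and 7.32%, and CACGTG in 6 (8.70%), against 7.43%, 8.94% and 11.0%. Among members with a window, CCGGAAG was in 24 of 56 that rose and 3 of 8 that fell, and ATGGCGG in 19 of 56 that rose and 4 of 8 that fell. The median log2 fold change was 0.57 with CCGGAAG and 0.65 without it, and 0.54 with ATGGCGG and 0.64 without it. A match describes letters only and is no evidence of binding.

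In the large subunit, MRPL1, which forms the mobile L1 stalk beside the tRNA exit site, changed most. The MRPL1 gene (ENSG00000169288.17, chr4:77862520-77952790, plus strand, coordinates of GENCODE release 29 on GRCh38 here and below) had 23.8 and 26.3 CPM in KO libraries, against 10.2 and 10.5 CPM in control libraries. Its fitted log2 fold change was 1.27 with a standard error (SE) of 0.09 (adjusted p = 1.43e-13, edgeR). MRPL12, the protein of the L7/L12 stalk that recruits translation factors (chr17:81703357-81707526, plus strand), had 85.6 and 88.3 CPM in KO libraries, against 43.2 and 35.2 CPM in control libraries. The control replicates of MRPL12 lay further apart than its KO replicates, but the groups did not overlap. Its log2 fold change was 1.16 (SE 0.07, adjusted p = 2.36e-09). A protein-coding read-through gene covers MRPL12 on the same strand, so its counts are uncertain.

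MRPL37 and MRPL38, both added in mitochondria, had higher levels and tight replicates. MRPL37 (chr1:54184041-54225464, plus strand) had 102.9 and 103.2 CPM in KO libraries, against 47.5 and 45.2 CPM in control libraries, a log2 fold change of 1.15 (SE 0.04, adjusted p = 1.14e-19). MRPL38, a protein of the central protuberance (chr17:75898643-75905413, minus strand), had 98.7 and 96.7 CPM in KO libraries, against 45.4 and 43.8 CPM in control libraries, a log2 fold change of 1.13 (SE 0.04, adjusted p = 2.65e-19). They rose 2.22-fold and 2.19-fold, with no overlap between groups. MRPL37 is overlapped by opposite-strand coding genes, and MRPL38 by a coding gene on its own strand. MRPL9 (chr1:151759643-151763564, minus strand) had 124.9 and 124.5 CPM in KO libraries, against 63.5 and 60.2 CPM in control libraries, a log2 fold change of 1.01 (SE 0.04, adjusted p = 3.12e-19). MRPL24, which lies by the exit of the peptide tunnel (chr1:156737303-156741590, minus strand), had 151.5 and 151.0 CPM in KO libraries, against 79.7 and 84.2 CPM in control libraries, a log2 fold change of 0.88 (SE 0.04, adjusted p = 1.19e-18). These genes, all above 40 CPM in control cells, had the 4 smallest p among the large-subunit genes.

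Other large-subunit genes rose less evenly. MRPL58, which keeps a peptide-release activity for stalled ribosomes, had 27.9 and 28.3 CPM in KO libraries, against 13.04 and 14.8 CPM in control libraries. MRPL45, which anchors the ribosome at the inner membrane, had 53.3 and 51.1 CPM in KO libraries, against 27.7 and 28.5 CPM in control libraries. MRPL3, a protein near the peptidyl transferase centre, had 125.0 and 122.7 CPM in KO libraries, against 105.7 and 104.0 CPM in control libraries. All 3 rose, with log2 fold changes of 1.01, 0.89 and 0.24 in that order; they were picked for their roles after the values were seen.

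In the small subunit, MRPS7, a protein of the head of the subunit, rose most. MRPS7 (ENSG00000125445.10, chr17:75261674-75266373, plus strand) had 69.3 and 72.9 CPM in KO libraries, against 30.1 and 30.2 CPM in control libraries. The groups lay far apart and the log2 fold change was 1.24 (SE 0.05, adjusted p = 1.78e-18). MRPS27, a pentatricopeptide repeat protein (chr5:72219409-72320646, minus strand), had 98.7 and 97.2 CPM in KO libraries, against 49.98 and 48.8 CPM in control libraries, a log2 fold change of 0.99 (SE 0.04, adjusted p = 3.04e-18). MRPS5, at the mRNA entry channel (chr2:95087207-95149434, minus strand), had 106.0 and 107.3 CPM in KO libraries, against 59.1 and 60.5 CPM in control libraries, a log2 fold change of 0.83 (SE 0.04, adjusted p = 3.99e-17). MRPS23 (chr17:57834781-57850056, minus strand) had 76.4 and 75.6 CPM in KO libraries, against 40.6 and 38.1 CPM in control libraries, a log2 fold change of 0.95 (SE 0.05, adjusted p = 1.35e-16). In each of these genes both KO libraries exceeded both control libraries by many times the gap between replicates. MRPS36 (chr5:69217760-69230129, plus strand), the dehydrogenase component named like a ribosomal protein, had 35.6 and 33.4 CPM in KO libraries, against 14.95 and 16.04 CPM in control libraries, a log2 fold change of 1.15 (SE 0.07, adjusted p = 1.80e-14).

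**Figure D2:**
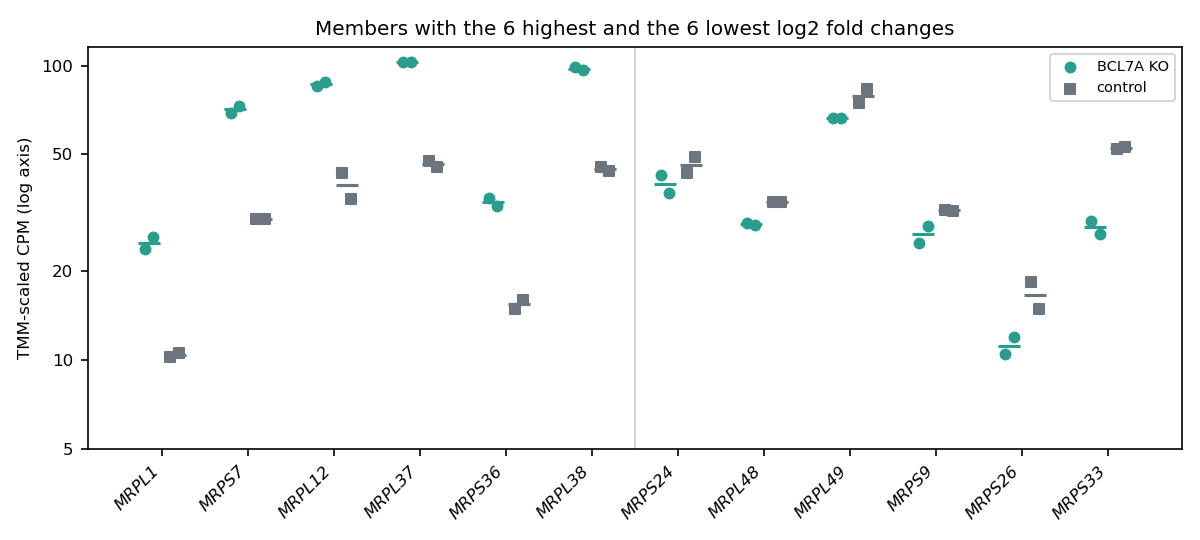
TMM-scaled CPM on a log axis in each of the 4 libraries for the members with the 6 highest and the 6 lowest log2 fold changes, KO libraries left of control libraries, each library a point and each line a group mean. MRPL37 sits at 102.9 and 103.2 CPM in KO and at 47.5 and 45.2 CPM in control cells, while MRPS33 sits at 29.7 and 26.8 CPM in KO and at 52.0 and 53.1 CPM in control cells.

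The 3 MRPS18 genes are paralogs whose products occupy different places, MRPS18C and MRPS18B in the small subunit and MRPS18A in the large. MRPS18C had 35.5 and 36.5 CPM in KO libraries, against 16.6 and 17.4 CPM in control libraries, a log2 fold change of 1.08 (SE 0.07, adjusted p = 1.97e-14). MRPS18A had 36.3 and 33.3 CPM in KO libraries, against 25.5 CPM in each control library, a log2 fold change of 0.45 (SE 0.06, adjusted p = 4.35e-07). MRPS18B had 106.4 and 102.7 CPM in KO libraries, against 92.2 and 89.4 CPM in control libraries, a log2 fold change of 0.20 (SE 0.04, adjusted p = 2.01e-05). All 3 rose, MRPS18B by the least, and its call was lost with upper-quartile factors (0.07, adjusted p = 0.0933).

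Against the general direction, 8 members fell, 5 of the small subunit and 3 of the large. MRPS33, a mitochondria-specific protein of the small subunit (ENSG00000090263.15, chr7:141002610-141015228, minus strand), had 29.7 and 26.8 CPM in KO libraries, against 52.0 and 53.1 CPM in control libraries. It was lower in KO cells by 1.86-fold, with a log2 fold change of -0.90 (SE 0.06, adjusted p = 4.01e-14). MRPS26, another mitochondria-specific small-subunit protein (chr20:3045945-3048254, plus strand), had 10.5 and 11.96 CPM in KO libraries, against 18.4 and 14.9 CPM in control libraries, a log2 fold change of -0.56 (SE 0.11, adjusted p = 4.21e-05). MRPS26 also had the widest replicate gap on the log2 scale of the members that fell, but its groups did not overlap. No annotated coding gene overlaps either gene.

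The other 6 fell by less than 0.3 on the log2 scale. MRPS9, whose bacterial counterpart touches the tRNA in the P site, had 25.1 and 28.5 CPM in KO libraries, against 32.4 and 32.0 CPM in control libraries, a log2 fold change of -0.27 (SE 0.07, adjusted p = 8.22e-04). MRPL49 had 66.3 CPM in each KO library, against 74.8 and 83.7 CPM in control libraries, a log2 fold change of -0.26 (SE 0.05, adjusted p = 1.57e-05). MRPL48 had 29.2 and 28.7 CPM in KO libraries, against 34.4 and 34.5 CPM in control libraries, a log2 fold change of -0.25 (SE 0.06, adjusted p = 4.46e-04). In all 3 the groups stood apart, with narrow gaps. MRPS24, the counterpart of bacterial S3 at the mRNA entry, had 42.6 and 36.9 CPM in KO libraries, against 43.1 and 48.8 CPM in control libraries, a log2 fold change of -0.21 (SE 0.07, adjusted p = 0.0164). MRPS35 and MRPL50 each had a log2 fold change of -0.21 (adjusted p = 7.23e-04 and 0.00145). Of these 6 calls, 3 were lost when a single library was left out. MRPS9 gave -0.17 (adjusted p = 0.0858) without KO replicate 1, and MRPS24 gave -0.10 (adjusted p = 0.221) without KO replicate 2 and -0.13 (adjusted p = 0.196) without control replicate 2. MRPL50 gave -0.16 (adjusted p = 0.0735) without KO replicate 2 and -0.13 (adjusted p = 0.053) with no filter on low counts. MRPL49, MRPL48 and MRPS35 kept their calls with any library left out. A read-through gene covers MRPS24 on the same strand.

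The 7 members that did not pass the test were MRPL10, MRPL11, MRPL23, MRPL51, MRPL52, MRPL57 and MRPS17. MRPL10, which anchors the L7/L12 stalk on which MRPL12 sits, had 58.7 and 56.3 CPM in KO libraries, against 59.2 and 57.8 CPM in control libraries, a log2 fold change of -0.02 (adjusted p = 0.644). MRPL11, at the base of the same stalk, had 27.9 and 29.8 CPM in KO libraries, against 26.2 CPM in each control library, a log2 fold change of 0.14 (adjusted p = 0.0546). Thus, of the stalk proteins, MRPL12 passed the test and MRPL10 and MRPL11 did not; the difference between them was not tested. MRPL11 was called higher with no filter on low counts (0.22, adjusted p = 0.0019) and without KO replicate 1 (0.20, adjusted p = 0.0456). MRPL51 had 46.6 and 48.5 CPM in KO libraries, against 44.5 and 49.3 CPM in control libraries, a log2 fold change of 0.02 (adjusted p = 0.777). MRPL23 (-0.02), MRPL57 (0.03), MRPS17 (-0.05) and MRPL52 (-0.08) had adjusted p of 0.841, 0.712, 0.52 and 0.472, and their KO and control libraries overlapped. With upper-quartile factors, which shifted all genes by a median of -0.13 on the log2 scale, MRPL10 (-0.16, adjusted p = 0.00357) and MRPS17 (-0.18, adjusted p = 0.0183) were called lower.

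The members' changes varied with their place in the genome. The 78 genes lie on 21 chromosomes, and on 19 of these the members' median log2 fold change exceeded that of the other protein-coding genes of at least 10 CPM. On chromosome 5, all 5 members rose (MRPS36, MRPL36, MRPL22, MRPS27 and MRPS30, median 1.00, range 0.61 to 1.15); the 408 other genes there had a median of 0.74, and 86.0% of them rose. On chromosome 7, 1 of 4 members rose (MRPL32, 0.16) and 2 fell (MRPS33 and MRPS24), with a median of -0.13; the 413 other genes there had a median of -0.18, with 31.0% higher and 52.8% lower. On chromosome 17, 7 of 8 members rose and MRPL10 did not pass the test (median 0.98), beside a median of 0.30 for the other genes. On chromosome 13, MRPS31 rose by 0.79 and MRPL57, at 0.03, did not pass the test, beside a median of -0.03 for 131 other genes. Without chromosomes 5 and 7, 57 of the remaining 69 members rose and 6 fell, with a median of 0.60.

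**Figure D3:**
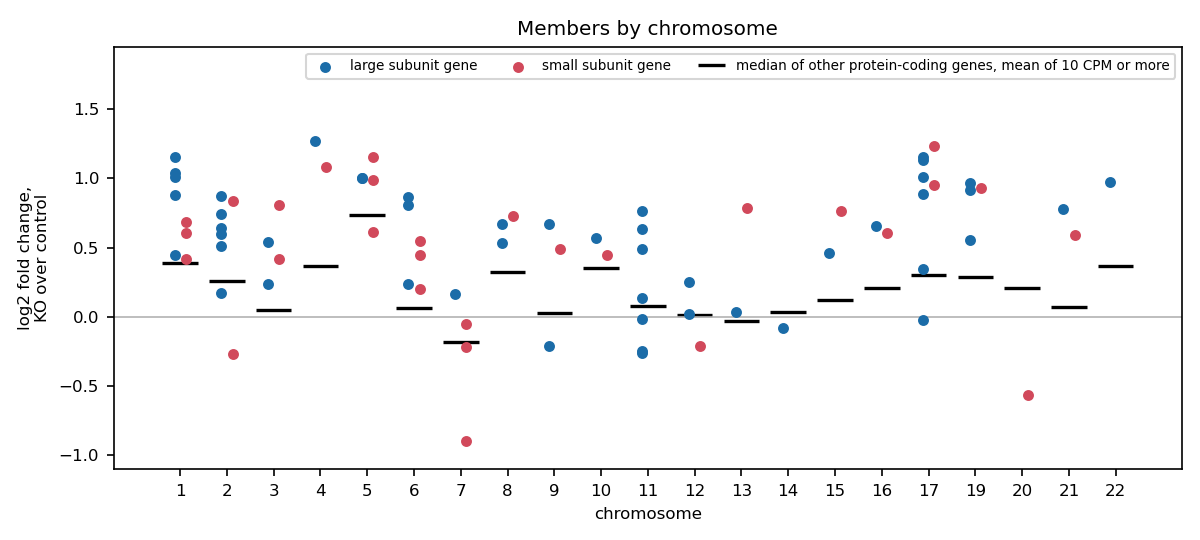
Log2 fold change of each member by chromosome (points), beside the median of the other protein-coding genes of at least 10 CPM on the same chromosome (dashes). On chromosome 5 the members' median is 1.00 and that of the other genes 0.74, and on chromosome 7 the medians are -0.13 and -0.18.

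Each member was also set beside its flanking protein-coding genes of at least 10 CPM, 10 on each side for 75 members and, where fewer such genes lay on one side, 14 in all for MRPL41, 17 for MRPL28 and 18 for MRPL57. Across the 78 members, the log2 fold change went with the median of the flanking genes (Pearson's r = 0.632, Spearman's rho = 0.619). By contrast, r was 0.109 with the log2 mean level and 0.259 with the log2 coding length. Genes are not independent replicates, and the points share the 4 libraries and some flanking genes. Other members and genes that overlap the member were kept among the flanking genes, such as SARS2 beside MRPS12. The member lay above the median of its own flanking genes in 66 of 78 cases, by a median of 0.41 (0.40 for large-subunit and 0.45 for small-subunit genes). Where the flanking median was below 0, 12 of 21 members rose and 6 fell. Where it was 0.4 or more, 23 of 24 rose and 1 fell. The 6 that fell where the flanking median was below 0 were MRPS33, MRPS35, MRPS24, MRPL48, MRPL49 and MRPL50. Of the 20 genes around each, 14 also fell around MRPS33 and 15 around MRPS35. Around MRPL50, 9 rose and 9 fell (flanking median -0.08), close to the setting of MRPS26, where 8 rose and 9 fell (0.03). Around MRPS9, which also fell, 16 of 20 genes rose (flanking median 0.48). MRPL27 went furthest the other way, rising by 0.35 where the flanking median was -0.77. The bounds of 0 and 0.4 were chosen after the values were seen.

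**Figure D4:**
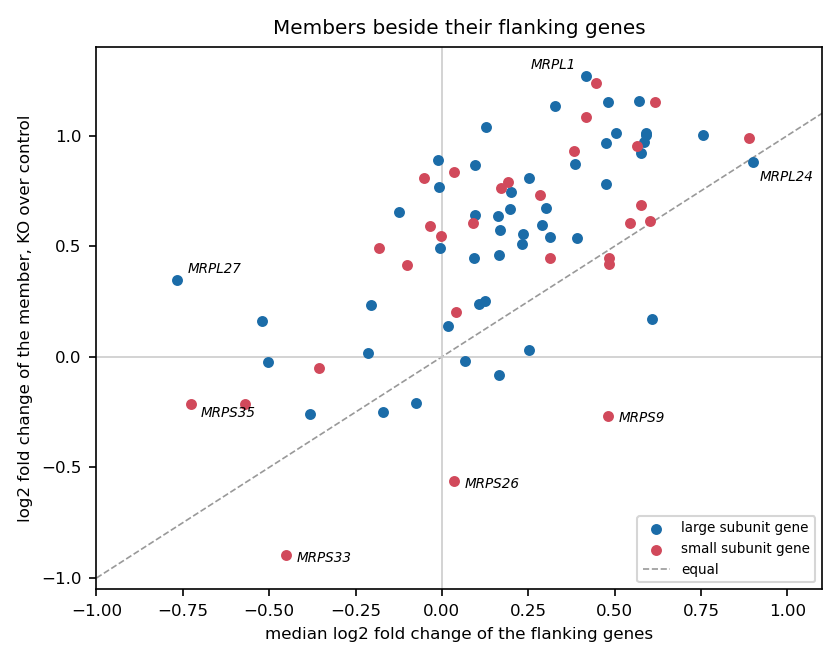
Log2 fold change of each member (vertical axis) against the median log2 fold change of its flanking genes (horizontal axis); the dashed line marks equal values, and 66 of 78 members lie above it. MRPS9 and MRPS26 lie below it at -0.27 and -0.56, beside flanking medians of 0.48 and 0.03.

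Some members share a short start region with a gene on the opposite strand. Such divergent neighbours, with GENCODE starts within 1000 bases and no overlap between the genes, gave 16 pairs with 17 members. Neighbours that overlap the member at its start, such as SARS2 beside MRPS12 and TWNK beside MRPL43, were not counted. Both genes rose in 8 pairs and both fell in 1 (MRPL50 and ZNF189, -0.21 and -0.91). With each pair counted once, 9 of the 16 neighbours rose and 6 fell, beside 54.2% and 31.7% of the genes of at least 10 CPM. The neighbours were thus near this background, which is no result about them, and whether pairs moved together was not tested. By GENCODE gene starts, MRPL36 begins 34 bases from NDUFS6, a complex I subunit gene, and their log2 fold changes were 1.00 and 0.78; the RefSeq start of MRPL36 lies 1529 bases from its GENCODE start. MRPS11 and MRPL46, a small-subunit and a large-subunit gene, start 34 bases apart and rose by 0.76 and 0.46. The member rose while its neighbour fell in 4 pairs, with PNPLA7 at -2.78 beside MRPL41, EME1 at -1.21 beside MRPL27, AC010132.3 at -0.50 beside MRPL32 and MITD1 at -0.33 beside MRPL30. The members of the other 3 pairs did not pass the test. Whether the counting used strand is not stated in the labels or the file, and reads of overlapping genes may be shared. This also holds for members described above without mention of an overlap. On the same strand, ZNF514 overlaps MRPS5 and NIPSNAP2 covers MRPS17, and on the opposite strand SYVN1 covers MRPL49. Of the 38 members that overlap another protein-coding gene, 33 rose and 2 fell (median 0.58); of the 40 that do not, 30 rose and 6 fell (median 0.63).

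Mitochondrial ribosomal proteins with other names moved the same way. All 5 examined rose, beside 54.2% of the genes of at least 10 CPM, and their median was 0.84. DAP3, a GTP-binding protein of the small-subunit head, had 323.3 and 325.8 CPM in KO libraries, against 150.8 and 148.6 CPM in control libraries, a log2 fold change of 1.12 (SE 0.03, adjusted p = 4.17e-23). AURKAIP1 (0.86), GADD45GIP1 (0.84), CHCHD1 (0.81) and PTCD3 (0.41) followed. These 5 genes are not counted among the 78.

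Genes for assembly and translation factors mostly rose, while the share that rose among genes for charging the tRNAs was near the background. Of 29 genes for assembly and ribosomal RNA modification, 20 rose and 2 fell, with a median of 0.35. CLPP, the mitochondrial matrix protease, rose by 1.09, NOA1, a GTPase of small-subunit assembly, by 0.89, RBFA by 0.78 and FASTKD2 by 0.68, while YBEY (-0.90) and NGRN (-0.48) fell. Of 19 translation factor genes, 15 rose and 3 fell, with a median of 0.42. TUFM, the elongation factor that delivers aminoacyl-tRNA, had 250.8 and 246.9 CPM in KO libraries, against 149.0 and 153.2 CPM in control libraries, a log2 fold change of 0.72 (SE 0.03, adjusted p = 2.61e-18). GFM2, which splits the subunits for recycling, rose by 1.06, MTIF2 by 0.76 and OXA1L, the insertase at the inner membrane, by 0.60; C12orf65 (-0.70), MTRF1 (-0.58) and GFM1 (-0.12) fell. The elongation factors thus included genes of both directions. Of 20 genes for charging mitochondrial tRNAs, 10 rose and 4 fell (median 0.13), with TARS2 at 0.91 and HARS2 at 0.77, and with CARS2 at -0.99 and GATC at -0.54. In the order given, 69.0%, 78.9% and 50% of these lists rose, beside 54.2% of the genes of at least 10 CPM. The share of the genes for charging tRNAs was near this background, which is no result about them. The difference between these lists was not tested.

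The RNA side of the ribosome was mixed. Of 15 transcripts of the mitochondrial genome, 10 rose and 5 fell, with a median of 0.22. MT-RNR1, the small-subunit ribosomal RNA, had 1239 and 1151 CPM in KO libraries, against 872.0 and 942.2 CPM in control libraries, a log2 fold change of 0.40 (SE 0.06, adjusted p = 0.00227). MT-RNR2, the large-subunit ribosomal RNA, had 4819 and 4767 CPM in KO libraries, against 6038 and 5957 CPM in control libraries, a log2 fold change of -0.32 (SE 0.02, adjusted p = 8.52e-15). The RNAs of the 2 subunits thus moved in opposite directions, in libraries selected for poly(A) tails, which capture ribosomal RNA only in part. Of 15 genes for mitochondrial transcription and genome maintenance, 11 rose and 2 fell (median 0.34). The 4 with the smallest p were PNPT1 (0.97), ELAC2 (0.96), LONP1 (0.53) and MTPAP (0.68), which rose. SUPV3L1 (-0.59) fell, as did MTERF1, with 0 counts in each KO library, against 15 and 12 counts in the control libraries. TFAM, which packages the mitochondrial genome, did not pass the test, with 46.7 and 47.4 CPM in KO libraries, against 45.4 and 47.0 CPM in control libraries. Of 9 regulators of mitochondrial genes, 5 rose and 3 fell. YY1 (-0.72), NRF1 (-0.34) and MYC (-0.16) fell, while PPARGC1B (0.69), ESRRA (0.40) and GABPA (0.16) were among those that rose. The shares that rose were 66.7%, 73.3% and 55.6% in these lists in the order given, beside 54.2% of the genes of at least 10 CPM. That of the regulators was near this background, which is no result about them.

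Cytosolic ribosomal protein genes had a smaller median change than the members. Of 77 cytosolic ribosomal protein genes, 47 rose and 20 fell, with a median of 0.17 (0.15 in the large and 0.24 in the small subunit), and 0 rose at least 2-fold. Complex I subunit genes with NDUF names, most of which are nuclear partners of subunits that the mitochondrial ribosome makes, were nearer to the members: 34 of 37 rose and 1 fell, with a median of 0.47. These medians stand against 0.61 for the 78 members, and the differences were not tested. Of the genes of at least 10 CPM, 54.2% rose, beside 61.0% of the cytosolic ribosomal protein genes and 91.9% of the complex I genes.

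**Figure D5:**
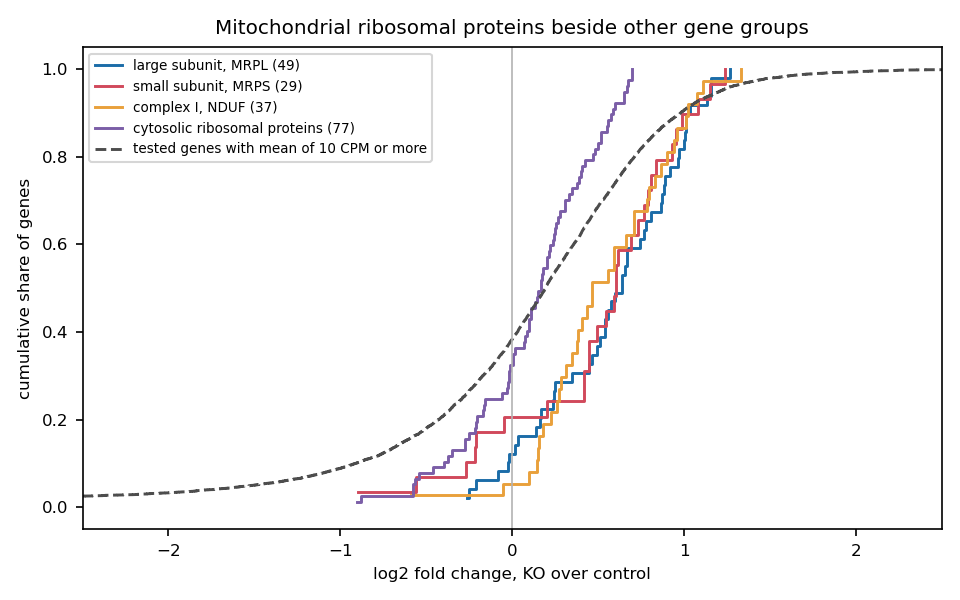
Cumulative share of genes (vertical axis) by log2 fold change, KO over control (horizontal axis), for mitochondrial large-subunit and small-subunit genes, cytosolic ribosomal protein genes, complex I genes and all tested genes of at least 10 CPM; a curve further right holds more genes that are higher in KO cells. The medians are 0.64 and 0.60 for the mitochondrial subunits, 0.17 for the cytosolic ribosomal proteins, 0.47 for complex I and 0.19 for the genes of at least 10 CPM.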

How the data were processed

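Expression was deposited by the authors as a single table of estimated counts, one row a gene; the submitters' processing notes name Salmon 0.12 and the GRCh38 build. The values are whole numbers and were not rounded further. Neither the annotation nor the strand setting of the counting is named in the labels or the file. All 56809 gene names matched GENCODE release 29, the source of coordinates. The 92 spike-in rows were left out. edgeR 4.0.16 (R 4.3.3) was fitted to all genes of the 4 libraries: TMM factors, filterByExpr (17885 genes kept), robust quasi-likelihood test, Benjamini-Hochberg adjustment over all tested genes, threshold 0.05. SE is the log2 fold change divided by the root of F. Counts of replicates differed beyond sampling noise (chi-square over its degrees of freedom 1.77 in KO and 2.37 in control). That excess does not show that replicate libraries came from different cultures. Each library was kept as its own replicate. Values are named for the 6 members at either end of the log2 fold changes, the 4 of each subunit with the smallest p, 6 that did not pass, the MRPS18 paralogs, DAP3 and the other ribosomal proteins named otherwise, both mitochondrial ribosomal RNAs and up to 4 genes by p per other list. The remaining members and list genes given with values, such as those that fell, were chosen after their values were seen. The members, lists and motifs were chosen with earlier results of these data known. Alternatives were other scalings and filters, DESeq2 1.42.0, limma-voom (limma 3.58.1), a replicate block, thinned KO counts and each library left out. Per gene, 1 promoter window was used. A further marker list is not reported here.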

Additional observations from a re-analysis of the deposited data

How the results depend on the processing

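The direction of the subunits' response held under every alternative run, with medians of 0.50 to 0.72 for large-subunit and 0.47 to 0.69 for small-subunit genes. The medians for large-subunit and small-subunit genes were 0.50 and 0.47 with upper-quartile factors, 0.72 and 0.69 with no filter on low counts, 0.58 and 0.55 with a stricter filter, and 0.57 each with the KO libraries thinned to the control depth. Grouping by place in the ribosome gave 0.61 for the large subunit. Leaving out each library in turn gave 0.59 to 0.66 for the large and 0.56 to 0.63 for the small subunit, with 39 to 41 large-subunit genes higher and 2 to 3 lower, and 23 small-subunit genes higher and 4 to 5 lower. The summed ratios without TMM factors were 1.24 and 1.17. Upper-quartile factors called 59 of the 78 members higher and 10 lower; the other alternatives at the threshold of 0.05 called 62 to 64 higher and 6 to 8 lower.

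With the replicate number as a block, 63 members were called higher and 8 lower, the same genes as without it, and no call changed. Deviations of same-numbered libraries from their group means correlated at -0.193 over 9537 genes. With 2 libraries a group, this single value cannot show whether the numbers pair the libraries. A crossed pairing, added after seeing the data, also called 63 higher and 8 lower.

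Members near 0 changed sign. MRPL51 was -0.12 with upper-quartile factors and -0.041 with the stricter filter, and -0.055 to 0.083 with a library left out. MRPL57 was -0.10 with upper-quartile factors, -0.026 with the stricter filter and -0.024 with thinned counts, and -0.040 to 0.11 with a library left out. With no filter, MRPL23 was 0.065, MRPL10 0.059, MRPS17 0.034 and MRPL52 0.0029; with a library left out, MRPL23 spanned -0.099 to 0.040, MRPL10 -0.057 to 0.017, MRPS17 -0.13 to 0.021 and MRPL52 -0.20 to 0.057. MRPS24 was not called by DESeq2 (adjusted p = 0.0548) or at a threshold of 0.01. MRPL33, called higher at 0.17, was lost under 7 alternatives, the threshold of 0.01 among them. The cause of these changes was not tested.

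With 2 libraries a group, small changes are the least certain: the calls that were lost or gained were all of members whose log2 fold change was 0.27 or less in size.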

Other observations

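Levels between members can be compared only per length, and the order depends on which length is used. Per kb of the longest coding transcript, MRPL24 had the highest mean level over the 4 libraries, at 118 CPM per kb, followed by MRPS21 at 76.8 and MRPL9 at 72.0 CPM per kb. The order below MRPL24 differed between the groups: MRPL9 had 96.2, MRPS21 92.7 and MRPL3 72.6 CPM per kb in KO cells, and MRPL9 had 47.7, MRPS21 60.8 and MRPL3 61.5 CPM per kb in control cells. Per kb of coding sequence, MRPS21, a short protein of the small subunit, came first at 430 CPM per kb, and MRPL24 had 180 and MRPL9 116 CPM per kb. MRPL42 was last by transcript length at 3.74 CPM per kb and the 10th highest by coding length at 125 CPM per kb.

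Pseudogenes of the members form 75 rows of the table, of which 19 held counts. Their sum was 231 and 279 counts in KO libraries, against 225 and 189 counts in control libraries, which is 0.156% and 0.180% of the members' counts in KO and 0.409% and 0.297% in control cells.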
